A study of Mus musculus with 61 samples.

Results

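Matrix metalloproteases (Mmp genes), the related Adam and Adamts proteases and their tissue inhibitors (Timp genes) were followed in adipose tissue of the 8 inbred mouse strains from which the Diversity Outbred stock was bred. Members were the rows of the count table whose gene symbol is Mmp, Timp, Adam or Adamts followed by a number, except Mmp12, which gave 61 of 21169 genes. The 61 libraries fell into 8 strains, named 129, AJ, B6, Cast, NOD, NZO, PWK and WSB in the labels, with 7 libraries each of 129, AJ and Cast and 8 of each other strain. Cast, PWK and WSB are wild-derived and the other 5 are classical laboratory strains, among them NZO, which becomes severely obese, and NOD, which is prone to autoimmune diabetes. Every group had received a high-fat, high-sugar diet, labelled 45 percent fat. So an effect of diet, or a response to it that differs between strains, cannot be told apart from strain here. The labels give neither the adipose depot nor the sex, age or batch of an animal, and nothing says whether replicates were separate animals, so p-values measure the spread between these libraries.

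Matrix metalloproteases are zinc enzymes, mostly secreted as inactive precursors, that cut collagens and other proteins of the extracellular matrix. The membrane-type enzymes act at the cell surface, and the Timps block the active site of these enzymes. Adam proteases are anchored in the membrane and release the outer part of other membrane proteins, whereas several Adams lack a catalytic site and serve in cell contact, some of them only in sperm. Adamts proteases are secreted, and cut proteoglycans or trim procollagen before it forms fibres. In adipose tissue these enzymes take part in rebuilding the matrix around growing fat cells, and macrophages and neutrophils bring metalloproteases of their own.

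The deposited gene annotation places 5 members beside each other on chromosome 9 of GRCm38, all on the plus strand, between positions 7272514 and 7699585. They are Mmp13 (a collagenase), Mmp3 (a stromelysin, which cuts many matrix proteins), Mmp8 (the collagenase of neutrophils), Mmp27 and Mmp7 (matrilysin, a small enzyme of epithelia). The 120 bases before a RefSeq start of each (GRCm38.p6, plus strand, 5′ to 3′) are printed because these neighbours differed in the strains in which they were high. Capitals mark TGANTCA, the letters bound by AP-1 transcription factors, which read the same on both strands.
Mmp13, chr9:7272394-7272513: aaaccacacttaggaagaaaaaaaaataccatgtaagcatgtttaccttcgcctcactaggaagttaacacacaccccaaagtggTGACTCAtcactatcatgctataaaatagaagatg
Mmp3, chr9:7445702-7445821: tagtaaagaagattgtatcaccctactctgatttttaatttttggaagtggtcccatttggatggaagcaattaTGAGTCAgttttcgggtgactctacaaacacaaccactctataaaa
Mmp8, chr9:7558309-7558428: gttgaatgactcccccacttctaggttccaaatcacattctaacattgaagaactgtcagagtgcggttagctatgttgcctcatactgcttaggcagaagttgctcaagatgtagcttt
Mmp27, chr9:7571276-7571395: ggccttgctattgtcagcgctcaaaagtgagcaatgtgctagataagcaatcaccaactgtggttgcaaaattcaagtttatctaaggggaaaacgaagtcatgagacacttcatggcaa
Mmp7, chr9:7691970-7692089: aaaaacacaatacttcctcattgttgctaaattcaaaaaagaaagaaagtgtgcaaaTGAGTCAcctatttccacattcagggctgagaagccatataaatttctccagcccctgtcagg
The first base of the match lay 35 bases before the start in Mmp13, 46 bases before it in Mmp3 and 63 bases before it in Mmp7, while these letters are not in the printed windows of Mmp8 and Mmp27. Over the 250 bases before each start, 4 of 41 RefSeq promoters of 37 members held TGANTCA (9.76%), against 2217 of 32851 promoters of all genes (6.75%). The 4 were these 3 and Adam19. Mmp7 has 2 RefSeq starts, and the printed bases lie before the first. The 250 bases before the second (7692091 to 7692340) held no TGANTCA. The letters TATAAA, searched on both strands, were in 5 of the 41 (12.2%) and in 12.4% of all promoters. Such a match is a description of the letters and says nothing of binding.

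The libraries held between 19851580 reads (WSB replicate 4) and 61277576 reads (B6 replicate 8). All 10 adipocyte markers were in the table, and their summed level lay between 15832 and 44207 CPM (counts per 1e6 counts of a library), so the labelled tissue carried its markers in every library. Several libraries stood apart in ways that touch members. The neutrophil markers summed to 3127 CPM in NZO replicate 8, against 17.4 to 49.9 CPM in the other NZO libraries, and to 90.9 and 93.2 CPM in Cast replicates 5 and 6. Markers of male ducts exceeded 300 CPM in 129 replicates 6, 7 and 9, B6 replicate 6 and NOD replicate 6. Only 2 of the 15 listed were in the table. The limit was close for 129 replicate 7 at 302 CPM, and B6 replicate 5 lay just under it at 296 CPM. Xist, the RNA of the inactive X chromosome, was at 314 to 744 CPM in 30 libraries and at most at 52.8 CPM in the other 31. It is used below as a number only.

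Below, the level of a gene is its CPM scaled by TMM (trimmed mean of M values), and levels of different genes are compared per kilobase of exon. By that measure the inhibitors Timp2 and Timp3 led the family, at 117 and 96.2 CPM per kb as means over all libraries, while Timp4 stood at 31.7 and Timp1 at 8.16 CPM per kb. Adam15 (53.9), the gelatinase Mmp2 (46.0), the proteoglycanase Adamts5 (25.0), Mmp19 (23.8), the procollagen N-proteinase Adamts2 (22.1) and the membrane-type Mmp14 (19.7 CPM per kb) were the highest of their own groups. The collagenases stood far lower, Mmp8 at 0.624 and Mmp13 at 0.596 CPM per kb. Of the 61 members 59 passed the filter on low counts. Adamts13, the enzyme that cuts von Willebrand factor, and Adam30, a gene of male germ cells, did not.

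Strain was compared with strain by edgeR's quasi-likelihood test, fitted on the whole table with Benjamini-Hochberg adjustment, and a gene was called at an adjusted p under 0.05. In an F-test 56 of the 59 tested members differed among the strains (94.9%), and so did 89.9% of all genes. The exceptions did not pass the test and are not shown to be alike. Strain accounted for a median of 45.0% of a member's variance on the log2 CPM scale, against 48.7% for all genes, and for most in Mmp13 (81.8%), Adamts10 (75.8%), Adamts5 (73.9%) and Adam17 (73.2%). Over the 28 strain pairs members gave 605 calls of 1652, where 37.1% of all tests over genes and pairs were called. Mmp13 was called in 19 of the 28 pairs, the most of any member.

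Each strain was then set against the mean of the other 7. NZO had 36 called members (53.9% of all genes were called), 29 of them higher (27.2%) and 7 lower (26.6%). Cast had 34 (56.2%), 13 higher (29.6%) and 21 lower (26.6%). WSB had 29 (49.3%), 9 higher (25.6%) and 20 lower (23.7%). The total shares of members called in Cast and WSB lay near those of all genes. Of the 9 higher calls in WSB, 5 were Adam2, Adam3, Adam5, Adam6b and Adam32, read mostly in a few libraries described below, and without 4 such libraries WSB had 2 members higher and 23 lower. PWK had 25 (43.6%), 15 higher (24.6%) and 10 lower (19.0%), but limma on the log2 table gave 9 higher and 14 lower, and without the same 4 libraries there were 11 and 10. For B6 the count was 16 (26.3%), 12 higher (14.6%) and 4 lower (11.7%), and for AJ it was 15 (23.0%), 11 higher (13.4%) and 4 lower (9.59%). All 11 skeletal muscle markers were higher in AJ, with sums of 1369 and 2731 CPM in replicates 3 and 4, and without the muscle-rich libraries AJ had 7 members higher and 6 lower. These 2 replicates held 487 and 630 CPM of Xist. Of the AJ libraries that stayed, replicate 2 held 552 CPM and the others at most 6.38 CPM. So this fit changes the Xist level of AJ together with its muscle markers, and their parts in these calls were not tested. For the counts above by limma or without libraries, no share of all genes was counted. Of the strains with few calls, NOD had 11 (26.5%), 7 higher (14.7%) and 4 lower (11.8%), and 129 had 8 (18.6%), 4 higher (10.8%) and 4 lower (7.78%). The median log2 fold change of the 59 members was 0.33 in NZO, -0.21 in WSB and -0.18 in Cast, beside -0.02, -0.01 and 0.02 for all genes, and between -0.12 and 0.16 in the other strains.

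**Figure D1:**
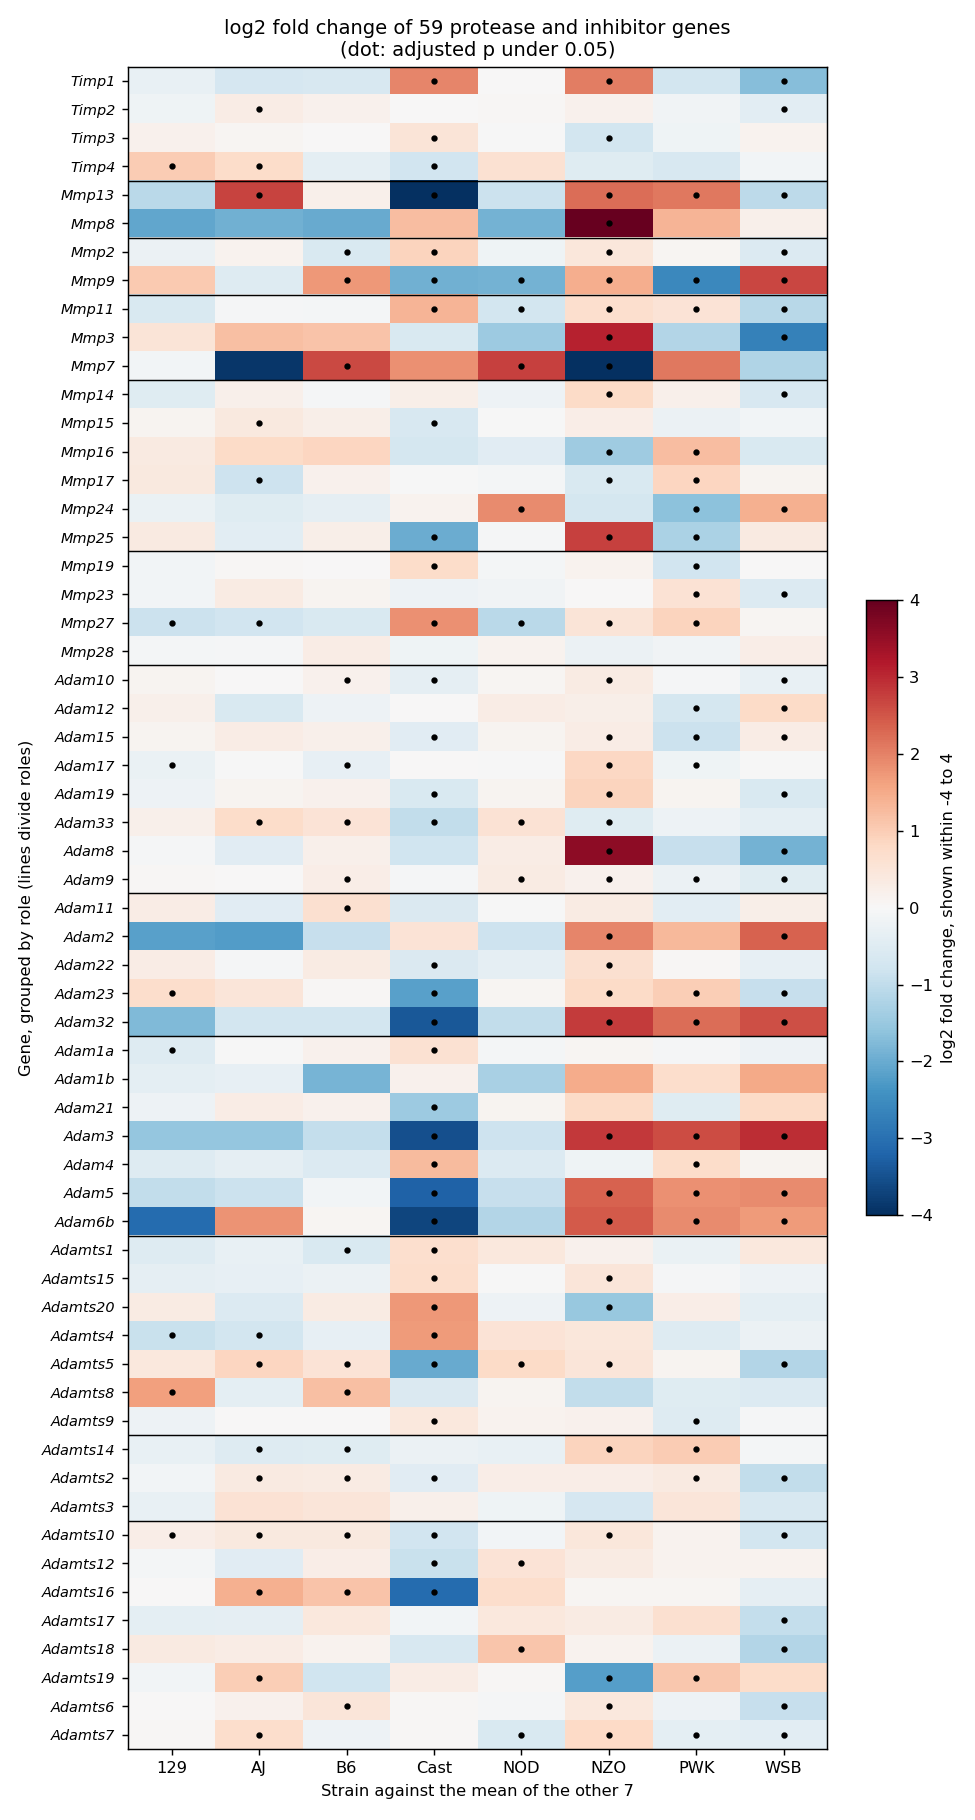
log2 fold change of the 59 tested members (rows, grouped by role) in each strain against the mean of the other 7 (columns); colour runs from -4 to 4 and a dot marks an adjusted p under 0.05. The NZO column has 29 dots on higher and 7 on lower members, the WSB column 9 and 20.

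The calls were not equally firm. When each of the 61 libraries was left out in turn, 21 of the 36 NZO calls, 26 of the 34 in Cast and 21 of the 29 in WSB held every time. In PWK 14 of 25 held, in NOD 8 of 11, in AJ 7 of 15, in B6 7 of 16 and in 129 3 of 8. B6 had 9 called members without its replicate 5, and 129 had 4 without its replicate 7. Leaving out the duct-rich libraries left 4 libraries of 129. That strain then had no called member of 60 by edgeR and 1 each by DESeq2 and limma. Of all 19129 genes tested there, edgeR called 2036, DESeq2 2698 and limma 2076. By edgeR 10 members had an unadjusted p under 0.05, a share that was not counted over all genes. The 129 libraries left out held at most 4.45 CPM of Xist, and the 4 that stayed held 418 to 581 CPM. Smooth muscle and pericyte markers summed to 2419 to 4182 CPM in the 129 libraries left out, and to 623 to 996 CPM in those that stayed. So this fit changes the Xist level of 129 together with its duct and smooth muscle markers, and their separate parts were not tested. Where a single library carried a member named below, its value without that library is given beside it.

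The strains ranked differently for each of the 4 inhibitors. Timp1, an inducible inhibitor whose gene lies on the X chromosome (20870166 to 20874735), was highest in NZO, where the 8 libraries held 8.32, 19.4 and 27.1 CPM (lowest, median and highest). The other classical strains lay lower, with medians of 4.12 CPM in NOD (3.55 to 12.6), 3.80 in AJ (1.24 to 6.58), 3.48 in 129 (1.25 to 11.96) and 2.93 in B6 (0.948 to 9.88). PWK had 0.245, 3.42 and 7.71 CPM, and WSB 0.771, 1.44 and 4.19. So NZO overlapped with only a few libraries of 129, B6 and NOD, and not at all with those of AJ, PWK and WSB. Timp1 was higher in NZO by 2.05 ± 0.39 (SE) on the log2 scale (adjusted p = 1.21e-05) and lower in WSB by -1.70 ± 0.53 (adjusted p = 0.00691).

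Cast broke into separate levels for Timp1. Replicates 5 and 6 held 56.0 and 58.6 CPM, above every other library of the series, while the other 5 Cast libraries held 1.11 to 3.21 CPM. The fitted change in Cast was 1.96 ± 0.41 (adjusted p = 5.05e-05), but it was -1.44 without those libraries (adjusted p = 0.0114), so the direction turned. The wild-derived strains did not pass the test for Timp1 as a set (log2 -0.22, adjusted p = 0.557), and without the same pair of libraries the value was -1.36 (adjusted p = 1.39e-05). Both libraries also held the higher neutrophil sums given above, and the part of those cells in the result was not tested.

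Timp2, besides blocking Mmps, helps to activate Mmp2 together with Mmp14. Its median was highest in B6 and AJ (493 and 488 CPM) and lowest in WSB (338 CPM, range 227 to 409.8), and WSB was lower by -0.43 ± 0.10 (adjusted p = 0.000281). In AJ, with 437 to 651 CPM, the value was 0.29 ± 0.10 (adjusted p = 0.0220), and without AJ replicate 2 it was 0.23 (adjusted p = 0.113). Timp3, the inhibitor that binds to the matrix and also blocks Adam17, was lowest in NZO at 189.7, 261 and 429.9 CPM and highest in Cast at 389, 621 and 879 CPM. The fitted values were -0.74 ± 0.14 in NZO (adjusted p = 1.21e-05) and 0.52 ± 0.13 in Cast (adjusted p = 0.000844). The ranges of NZO and Cast overlapped between 389 and 429.9 CPM. Nearly every library had estimates of Timp3 that were not whole numbers, so reads were split with another feature.

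Timp4 separated the classical strains. It was highest in 129 (225, 310.2 and 506 CPM) and AJ (109, 358 and 417), and lowest in Cast (65.5, 93.5 and 171). 129 was higher by 1.02 ± 0.25 (adjusted p = 0.00187), and stood at 0.65 (adjusted p = 0.220) without the libraries rich in duct markers. The 129 libraries that stayed were those with high Xist, at 225 to 310.2 CPM of Timp4. Those left out had low Xist and held 374 to 506 CPM. The parts of duct markers, of smooth muscle markers and of Xist in the lower 129 value were not tested. AJ stood at 0.72 ± 0.26 (adjusted p = 0.0323) and Cast at -0.75 ± 0.29 (adjusted p = 0.0244). Leaving out single libraries ended both calls, for example 0.59 without AJ replicate 1 (adjusted p = 0.131) and -0.66 without Cast replicate 3 (adjusted p = 0.0669). As a set, the wild-derived strains were lower for Timp4 (-0.69 ± 0.18, adjusted p = 0.000927) and Timp2 (-0.25 ± 0.07, adjusted p = 0.000906). Timp4 shares 90 exon bases with Syn2 on the opposite strand.

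Ordered by mean level, few neighbouring strains differed beyond their spread. For Timp1 the order from low to high was WSB, PWK, AJ, B6, 129, NOD, Cast and NZO, and only the step from NOD to Cast passed the test (adjusted p = 0.0194). The rank of Cast rests on replicates 5 and 6, since its other 5 libraries lay under the lowest NOD library. Timp3 ran from NZO through PWK, NOD, B6, AJ, WSB and 129 to Cast, and the step from NZO to PWK passed (adjusted p = 0.0129). No neighbouring pair passed for Timp2 (WSB, 129, PWK, Cast, NOD, NZO, B6, AJ) or Timp4 (Cast, PWK, NZO, B6, WSB, NOD, AJ, 129).

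**Figure D2:**
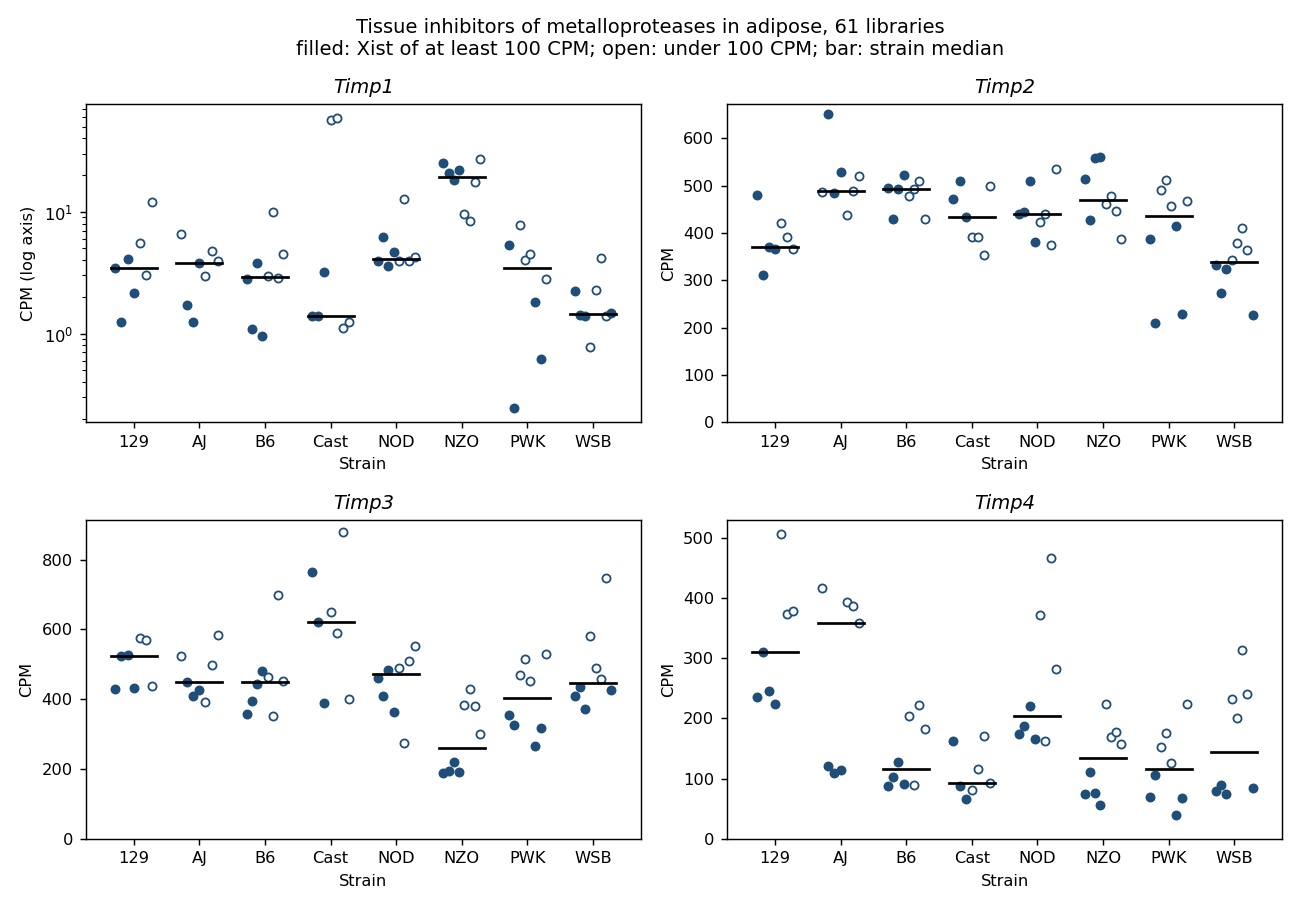
Level of the 4 Timp genes in CPM (log axis for Timp1) in each of the 61 libraries by strain; bars are strain medians, filled points libraries with Xist of at least 100 CPM. The Timp1 panel shows the 2 Cast libraries at 56.0 and 58.6 CPM above the rest of that strain, and the Timp3 panel the low NZO values down to 189.7 CPM.

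The collagenases cut fibrillar collagen. Mmp13 had the largest share of variance between strains of any member. AJ libraries held 2.67, 4.45 and 5.80 CPM, PWK 1.39, 2.71 and 5.61, and NZO 0.420, 2.85 and 6.52. Cast libraries held 0 to 0.289 CPM, with 1, 1, 0, 2, 1, 0 and 10 reads, and the 10 reads were in replicate 8. A library with no read still allows up to 3 reads by counting error alone. All AJ, B6, PWK and NZO libraries were above all Cast libraries, while 129 (0.143 to 0.766 CPM), NOD (0.236 to 0.903) and WSB (0.0925 to 1.32) overlapped with the one high Cast library. The log2 fold changes were 2.69 ± 0.31 in AJ (adjusted p = 4.79e-10), 2.23 ± 0.30 in NZO (adjusted p = 1.13e-08), 2.10 ± 0.31 in PWK (adjusted p = 9.64e-08) and -4.26 ± 0.57 in Cast (adjusted p = 6.96e-09). Without Cast replicate 8 the Cast value was -5.57 (adjusted p = 9.66e-11).

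The highest values of Mmp8 lay in single libraries. NZO replicate 8 held 67.8 CPM, and the other 7 NZO libraries held 0.0588 to 1.15 CPM. The NZO value of 5.06 ± 0.52 (adjusted p = 3.65e-12) therefore came to 0.93 without that library (adjusted p = 0.136), and to 0.83 by DESeq2 with all libraries (adjusted p = 0.180). Outside NZO the highest values were 3.91 CPM in Cast replicate 5 and 2.95 CPM in PWK replicate 1, whose neutrophil sums were 90.9 and 101 CPM. The wild-derived strains stood at 1.32 ± 0.49 (adjusted p = 0.0155), at 0.38 without Cast replicates 5 and 6 (adjusted p = 0.515) and at 2.14 without NZO replicate 8 (adjusted p = 2.05e-06). All these high libraries were also high in neutrophil markers, whose part was not tested.

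The remaining members of the chromosome 9 group each had another pattern. Mmp27, a little-studied metalloprotease, was highest in Cast at 2.15, 3.52 and 4.90 CPM, where Mmp13 was lowest. Medians in the other strains lay between 0.570 CPM (NOD) and 1.92 CPM (PWK), and ranges of PWK, NZO and WSB reached into that of Cast. The change was 1.81 ± 0.22 in Cast (adjusted p = 4.84e-10) and -1.07 ± 0.27 in NOD (adjusted p = 0.00188). Mmp27 was also lower in 129 (-0.85 ± 0.28, adjusted p = 0.0247) and AJ (-0.77 ± 0.28, adjusted p = 0.0345), calls that ended without single libraries of those strains, for example -0.71 without 129 replicate 7 (adjusted p = 0.0875) and -0.66 without AJ replicate 5 (adjusted p = 0.107).

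Mmp7 was read in some libraries only. It reached 42.7 CPM in NOD replicate 8, 32.6 in PWK replicate 4, 24.7 in B6 replicate 7 and 16.3 in Cast replicate 5, while 27 of the 61 libraries had no read of it. The strains overlapped entirely at the low end, since each had a library at 0. NOD (2.73 ± 0.96, adjusted p = 0.0285) and B6 (2.65 ± 0.97, adjusted p = 0.0348) were called higher and NZO lower (-4.10 ± 1.71, adjusted p = 0.0384). None of these calls held throughout: NOD came to 1.18 without replicate 8 (adjusted p = 0.480), B6 to 2.04 without replicate 7 (adjusted p = 0.160), and NZO to -3.07 without the duct-rich libraries (adjusted p = 0.315). The NZO value was -7.35 without NZO replicate 6 (adjusted p = 0.00856), and the call ended without each of 8 other single libraries. Mmp7 shares 123 exon bases with AV064505 on the other strand.

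**Figure D3:**
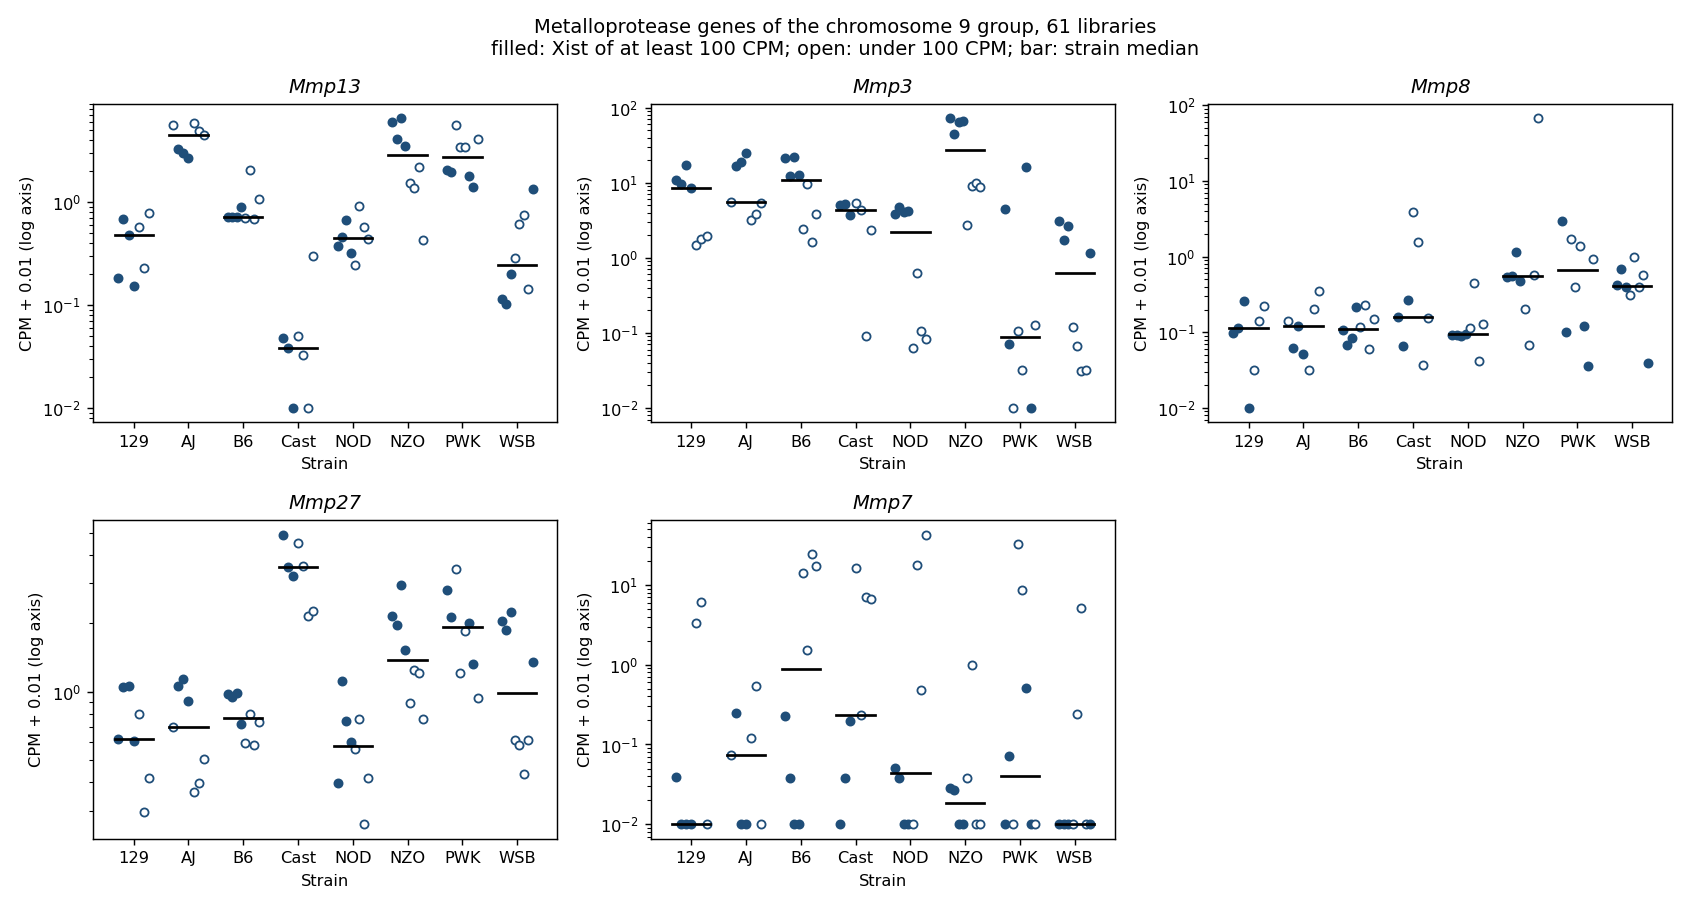
Level of the 5 members on chromosome 9 as CPM + 0.01 on a log axis, per library and strain; bars are strain medians, filled points libraries with Xist of at least 100 CPM. Mmp13 is lowest in Cast (median 0.028 CPM), Mmp27 highest there (3.52 CPM), and Mmp8 shows the NZO library at 67.8 CPM.

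Mmp3 was highest in NZO, at 2.69, 27.3 and 72.5 CPM, with a fitted change of 3.08 ± 0.55 (adjusted p = 4.75e-06). PWK had the lowest median, with 0, 0.0788 and 16.2 CPM, and WSB held 0.0213, 0.626 and 3.09 CPM. WSB was lower (-2.71 ± 0.89, adjusted p = 0.00968), and the wild-derived strains were lower together (-2.10 ± 0.53, adjusted p = 0.000579). Ranges within a strain were wide, and NZO overlapped with every other strain. Its relation to Xist within strains is given below. Mmp11, the stromelysin of stromal fibroblasts, had its highest median in Cast (10.5, 35.4 and 73.6 CPM; log2 1.36 ± 0.20, adjusted p = 3.85e-08). It was lower in NOD (-0.73 ± 0.22, adjusted p = 0.0103) and WSB (-1.12 ± 0.23, adjusted p = 5.89e-05).

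Of the gelatinases, which degrade denatured collagen and basement membrane, Mmp2 was the more abundant. Mmp2 held 174, 207 and 338 CPM in Cast and 131, 169 and 236 CPM in NZO, against 63.5, 89.7 and 138 CPM in B6 and 79.4, 103 and 116 CPM in WSB. No Cast library fell within the range of B6 or WSB. Cast was higher by 0.88 ± 0.12 (adjusted p = 1.33e-08) and NZO by 0.44 ± 0.12 (adjusted p = 0.00171). B6 stood at -0.60 ± 0.13 (adjusted p = 0.000314) and WSB at -0.53 ± 0.13 (adjusted p = 0.00057). Mmp14, the membrane enzyme that activates Mmp2, was likewise higher in NZO (90.4, 133 and 172 CPM; 0.77 ± 0.16, adjusted p = 5.84e-05) and lower in WSB (32.8, 48.7 and 81.9 CPM; -0.65 ± 0.18, adjusted p = 0.00229).

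Mmp9 was highest in WSB at 14.1, 39.2 and 68.6 CPM, followed by B6 at 6.93, 20.6 and 41.7 CPM, and lowest in PWK at 0.613, 1.07 and 4.75 CPM. No PWK library reached the WSB or B6 range. The log2 changes were 2.68 ± 0.37 in WSB (adjusted p = 3.38e-08), 1.74 ± 0.39 (adjusted p = 0.000594) in B6, -1.89 ± 0.54 in NOD (adjusted p = 0.00634) and -2.59 ± 0.57 in PWK (adjusted p = 0.000186). NZO replicate 8 held 127 CPM and the other NZO libraries 2.04 to 5.74 CPM. The fitted NZO value of 1.46 ± 0.40 (adjusted p = 0.00192) turned to -1.03 without that library (adjusted p = 0.0158), and the wild-derived value went from -0.86 ± 0.33 (adjusted p = 0.0206) to -0.36 (adjusted p = 0.151). In WSB 9 of 11 macrophage markers were lower and none higher, while 6 of 10 adipocyte, 5 of 9 T and NK cell and 10 of 11 skeletal muscle markers were higher, and their part in the Mmp9 level was not tested.

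Of the 6 membrane-type members tested, NZO had 2 higher and 2 lower (27.2% and 26.6% of all genes) and PWK 2 and 2 (24.6% and 19.0%). Cast had none higher and 2 lower (29.6% and 26.6%), and the other strains had at most 1 in each direction. The higher calls in PWK were Mmp16 and Mmp17, and both ended without PWK replicate 6 (0.34, adjusted p = 0.514, and 0.38, adjusted p = 0.139). Mmp25, a membrane-type enzyme of neutrophils named after its values were seen, stood at 15.5 CPM in NZO replicate 8 and at 0.323 to 1.86 CPM in the other NZO libraries. Its NZO value went from 2.74 ± 0.33 (adjusted p = 5.2e-10) to 1.29 without that library (adjusted p = 0.000593). Mmp17, another membrane-type member, was lower in AJ (-0.83 ± 0.26, adjusted p = 0.0156) and came to -0.74 without AJ replicate 5 (adjusted p = 0.0520). Mmp19 was lower in PWK at 42.7, 49.8 and 60.4 CPM (-0.77 ± 0.17, adjusted p = 0.000144). Cast replicate 5 held 341 CPM of Mmp19, and the Cast value of 0.73 ± 0.15 (adjusted p = 6.42e-05) came to 0.24 without it (adjusted p = 0.107). Mmp19 shares exons with Tmem198b on the other strand, and its counts were split estimates in every library.

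Of the 8 Adam sheddases with a catalytic site, 6 were called higher in NZO and 1 lower (27.2% and 26.6% of all genes), and 6 were called lower in the wild-derived strains and none higher (31.2% and 33.1%). The NZO calls of Adam15 and Adam9 ended without NZO replicate 8 (0.24, adjusted p = 0.107, and 0.15, adjusted p = 0.0542), and that of Adam9 also without NZO replicate 3 (0.13, adjusted p = 0.0768). Adam8, an Adam of myeloid cells, gave the widest gap. NZO libraries held 72.4, 134 and 358 CPM, and WSB libraries 3.83, 5.91 and 9.97 CPM. Medians in the other strains lay between 6.27 CPM (Cast) and 20.6 CPM (NOD), and a single library outside NZO, B6 replicate 6 at 86.6 CPM, fell within the NZO range. The change was 3.59 ± 0.33 in NZO (adjusted p = 9.83e-14), -1.88 ± 0.50 in WSB (adjusted p = 0.00146) and -1.68 ± 0.32 in the wild-derived strains (adjusted p = 7.48e-06).

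Adam17, which sheds tumour necrosis factor and many receptors, rose in NZO in a far narrower range, and with Adam19, Adam10, Adam9 and Adamts20 it is named after its values were seen. It held 73.9, 105 and 143 CPM there and between 45.6 and 85.5 CPM in all other libraries, of which only Cast replicate 5 lay within the NZO range. The change was 0.84 ± 0.07 (adjusted p = 8.31e-16). Adam19 followed, with 41.2, 59.2 and 78.5 CPM in NZO and 0.89 ± 0.11 (adjusted p = 3.67e-10). It was lower in Cast (-0.60 ± 0.13, adjusted p = 7.77e-05) and WSB (-0.59 ± 0.12, adjusted p = 5.7e-05). The ubiquitous Adam10, which cuts Notch receptors, rose by 0.31 ± 0.07 in NZO (adjusted p = 5.86e-05) and was lower in the wild-derived strains (-0.32 ± 0.05, adjusted p = 3.74e-08), as was Adam9 (-0.36 ± 0.04, adjusted p = 2.39e-10). Adam15 had the lowest median in PWK at 60.6, 92.3 and 142 CPM (-0.85 ± 0.13, adjusted p = 5.59e-07), and its counts were split estimates in every library. Adam33 was higher in NOD (0.57 ± 0.18, adjusted p = 0.0124), and at 0.46 without NOD replicate 1 (adjusted p = 0.0639).

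In NZO, markers of white blood cells moved with these members. Of the macrophage markers 10 of 11 were higher and 1 lower, and their sum was 2219 to 6460 CPM in NZO and at most 2660 CPM in any other library. All 9 tested markers of lipid-associated macrophages were higher (1031 to 4012 CPM in NZO), as were all 9 tested neutrophil markers, while 8 of 10 adipocyte markers and all 10 mesothelium markers were lower. In WSB 9 of 11 macrophage markers were lower and their sum was 525.6 to 920 CPM. In bulk tissue more cells of a type and more RNA per cell cannot be told apart, and the part of these cells in the members' values was not tested.

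Among the Adams without a catalytic site, Adam23, a partner of integrins and of the secreted Lgi proteins, was read in every library and was lowest in Cast. Cast libraries held 4.90, 10.3 and 17.2 CPM and WSB libraries 17.0, 21.4 and 28.2, against a highest median of 67.1 CPM in PWK. The changes were -2.18 ± 0.27 in Cast (adjusted p = 1.42e-09), -0.91 ± 0.23 in WSB (adjusted p = 0.000932), 1.00 ± 0.20 in PWK (adjusted p = 3.66e-05) and 0.78 ± 0.20 in NZO (adjusted p = 0.000937). No library of AJ, B6, NOD, NZO, PWK or 129 fell within the Cast range. The value in 129 was 0.70 ± 0.21 (adjusted p = 0.0143), and 0.75 without its duct-rich libraries (adjusted p = 0.0785). Adam1a, at a mean of 0.561 CPM per kb, was lower in 129 (-0.52 ± 0.19, adjusted p = 0.0442), a call that ended when any library of 129 was left out. It overlaps exons of Mapkapk5 and shares reads.

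Adam genes known from male germ cells were highest in NZO replicate 4, PWK replicate 5 and WSB replicate 7, with lower levels in WSB replicate 6, although Adam5 had reads in all but 1 library. Adam3, needed for sperm to bind the egg, stood at 24.8, 21.8, 20.8 and 6.11 CPM in these libraries, and at most at 1.22 CPM in the other 57. Adam5 stood at 27.8, 21.0, 17.4 and 4.81 CPM there. Adam32 (12.6, 8.92, 8.999 and 2.16 CPM) and Adam2 (9.42, 6.20, 9.11 and 1.81 CPM), both named after their values were seen, had the same 3 libraries on top, and Cast replicate 1 held 1.83 CPM of Adam2. Adam1b, Adam6b and Adam30 followed at lower levels, for example 1.40, 1.64, 1.62 and 0.374 CPM for Adam30. So the high values of the group lay in 1 library of NZO, 1 of PWK and 2 of WSB.

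Several fitted strain differences of this group rest on these libraries. Adam3 was called higher in PWK (2.60 ± 0.83, adjusted p = 0.00847) and WSB (2.95 ± 0.81, adjusted p = 0.00208), and lower in Cast (-3.51 ± 1.504, adjusted p = 0.0424). Without the 4 libraries the values were -1.45 in PWK (adjusted p = 0.145), -0.89 in WSB (adjusted p = 0.399) and -1.26 in Cast (adjusted p = 0.178). Adam5 went from 1.82 to -0.74 in PWK and from 1.90 to -0.78 in WSB, with adjusted p of 0.120 and 0.123 after the change. In Cast, Adam5 was at -3.23 ± 1.03 (adjusted p = 0.00641), a call that held when any single library was left out (-3.67 to -2.74). In NZO, Adam2 went from 1.96 to -1.89 (adjusted p = 0.0818) and Adam32 from 2.80 to -1.55 (adjusted p = 0.246) without replicate 4. The 1 of 8 listed testis markers in the table stood at 4.68, 5.61, 3.99 and 1.72 CPM in these 4 libraries, and at up to 3.23 CPM (PWK replicate 3) in the others. Their Xist levels were on both sides of 100 CPM. Whether testis or germ cell RNA reached them was not tested.

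**Figure D4:**
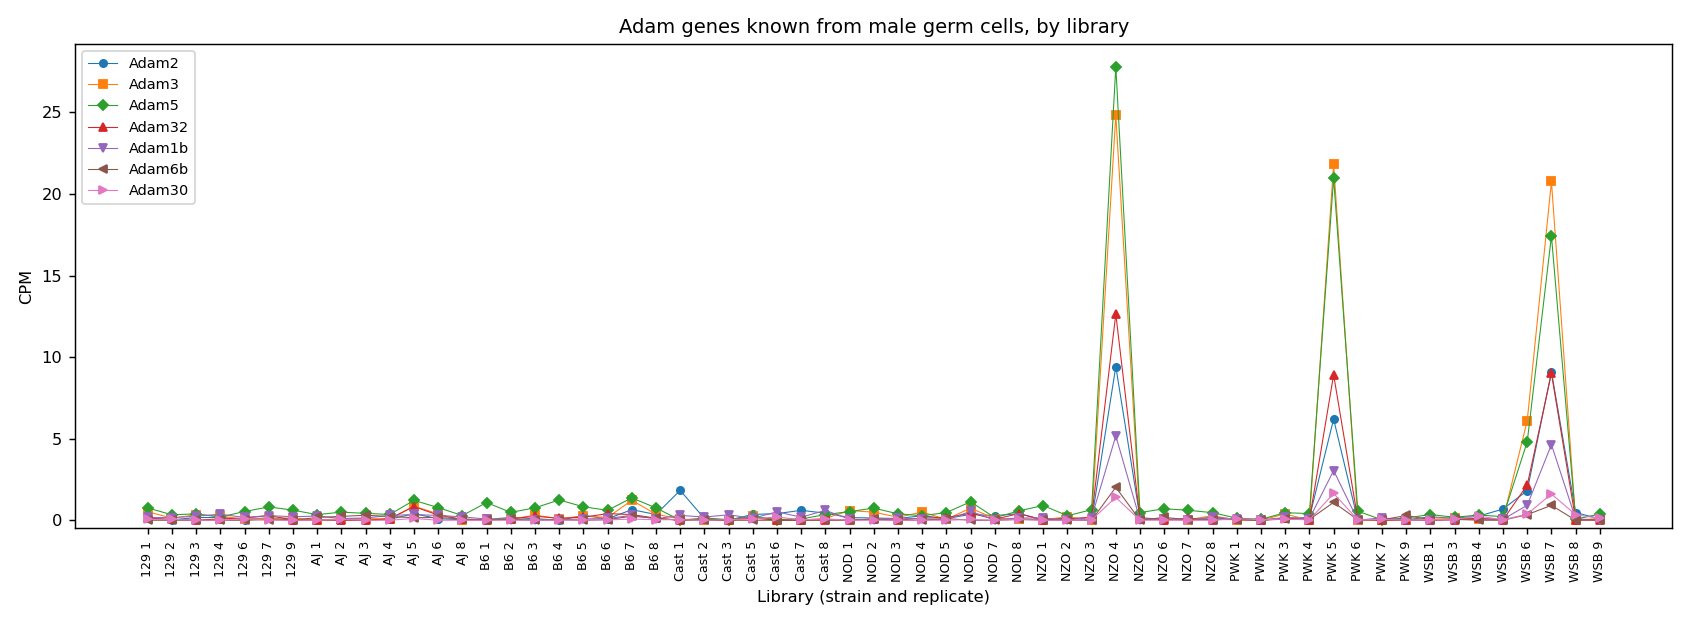
Level in CPM of 7 Adam genes of male germ cells in each of the 61 libraries, ordered by strain and replicate; a line joins the values of 1 gene. The 3 highest libraries are the same for all 7, with Adam5 at 27.8 CPM in NZO replicate 4 and 21.0 CPM in PWK replicate 5.

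The proteoglycanases of the Adamts family, which cut aggrecan and versican, did not move together. Adamts5 was lowest in Cast (43.0, 62.2 and 122 CPM) and WSB (86.0, 107 and 182 CPM), and highest in AJ (259, 434 and 559.8) and NOD (278, 375 and 489.6). All AJ and NOD libraries were above all Cast and WSB libraries. The changes were -2.01 ± 0.25 in Cast (adjusted p = 5.74e-10), -1.18 ± 0.22 in WSB (adjusted p = 8.6e-06), 0.85 ± 0.19 in AJ (adjusted p = 0.000588) and 0.78 ± 0.18 in NOD (adjusted p = 0.000906). The wild-derived strains together stood at -1.44 ± 0.14 (adjusted p = 1.06e-12).

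Cast had 5 of 7 proteoglycanases higher and Adamts5 lower (29.6% and 26.6% of all genes). Adamts4 held 16.0, 34.2 and 149 CPM in Cast, and its change of 1.71 ± 0.22 (adjusted p = 2.38e-09) was 1.07 without Cast replicate 5 (adjusted p = 2.73e-05) and 0.87 without replicates 5 and 6 (adjusted p = 0.00146). Adamts20, at 0.721, 1.28 and 2.31 CPM in Cast, was higher by 1.75 ± 0.29 (adjusted p = 1.02e-06). For Adamts1 and Adamts9 the calls ended without Cast replicate 5 (0.35, adjusted p = 0.162, and 0.08, adjusted p = 0.601), and for Adamts15 without Cast replicate 1 (0.27, adjusted p = 0.148). So Adamts4 and Adamts20 remained higher in Cast when any 1 of its libraries was left out.

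Adamts8, a proteoglycanase that also inhibits vessel growth, stood at 5.72, 3.95 and 6.27 CPM in 129 replicates 6, 7 and 9 and at 5.91 CPM in B6 replicate 6, which were 4 of the 5 libraries rich in male duct markers, and at 0.234 to 1.36 CPM in the other 129 libraries. The changes were 1.65 ± 0.39 (adjusted p = 0.00151) in 129, and B6 was also called higher (adjusted p = 0.0169). These came to -0.06 without the duct-rich libraries (adjusted p = 0.957) and to 0.76 without B6 replicate 6 (adjusted p = 0.192). The 129 libraries left out were also all those of 129 with low Xist. Smooth muscle and pericyte markers summed to 4106, 2419 and 4182 CPM in 129 replicates 6, 7 and 9 and to 3897 CPM in B6 replicate 6. The median over all libraries was 1077 CPM. NOD replicate 6, also rich in duct markers, held 1113 CPM, and the highest sum was 5143 CPM in PWK replicate 6. The parts of duct cells, of smooth muscle cells and of Xist were not tested. Adamts4 was lower in 129 (-0.91 ± 0.28, adjusted p = 0.0151) and AJ (-0.73 ± 0.27, adjusted p = 0.0433), and Adamts1 in B6 (-0.60 ± 0.21, adjusted p = 0.0295). Single libraries ended these calls, for example -0.78 without 129 replicate 6 (adjusted p = 0.0596), -0.65 without AJ replicate 8 (adjusted p = 0.109) and -0.54 without B6 replicate 2 (adjusted p = 0.0681).

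The procollagen N-proteinases remove the amino-terminal propeptide of fibrillar procollagens. Adamts2, the main one here, was lowest in WSB at 64.6, 72.9 and 143 CPM (-0.99 ± 0.13, adjusted p = 5.77e-09), with medians of 119.8 CPM in Cast and 149 to 204 CPM in the other strains. Adamts14 was high in PWK (13.7, 16.8 and 23.1 CPM; 1.01 ± 0.12, adjusted p = 4.56e-10) and NZO (9.23, 15.5 and 21.98 CPM; 0.89 ± 0.12, adjusted p = 9.05e-09). The remaining strains had Adamts14 medians of 6.24 to 8.95 CPM, and all their libraries lay under all PWK libraries. It was lower in B6 (-0.49 ± 0.14, adjusted p = 0.00463) and AJ (-0.52 ± 0.14, adjusted p = 0.00543).

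Of the other Adamts genes, WSB had 5 of 8 lower and none higher (23.7% and 25.6% of all genes), and the wild-derived strains 6 lower and 1 higher (31.2% and 33.1%). Adamts10, which acts on fibrillin microfibrils, was lowest in Cast (16.8, 24.6 and 33.7 CPM; -0.77 ± 0.10, adjusted p = 8.67e-09) and WSB (21.5, 25.9 and 35.5 CPM; -0.73 ± 0.10, adjusted p = 1.23e-08). No library of 129, AJ, B6 or NZO reached down to either. Adamts16 was nearly absent from Cast at 0, 0.716 and 1.5004 CPM (-3.09 ± 0.49, adjusted p = 3.88e-07) and highest in AJ and B6 (medians 6.27 and 6.62 CPM; AJ 1.43 ± 0.33, adjusted p = 0.00076). Adamts19 was lowest in NZO at 0.299, 0.389 and 0.904 CPM (-2.21 ± 0.42, adjusted p = 1.57e-05). Adamts7, named after its values were seen, was called in 18 of the 28 strain pairs, with 0.81 ± 0.11 (adjusted p = 7.01e-09) in NZO, 0.70 ± 0.12 (adjusted p = 3.52e-06) in AJ and -0.60 ± 0.12 (adjusted p = 0.000121) in NOD. In AJ the Adamts19 value of 0.98 ± 0.34 (adjusted p = 0.0284) was 0.61 without AJ replicate 4 (adjusted p = 0.251).

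Set against the classical strains, the 3 wild-derived strains had 37 called members of 59 (64.4% of all genes were called), 13 higher (33.1%) and 24 lower (31.2%). The share of members called lay near that of all genes. When each library was left out in turn, 5 of the higher and 21 of the lower calls held every time. The largest lower values were those of Mmp3, Adam8 and Adamts16 (-1.56 ± 0.26, adjusted p = 9.32e-07), and the largest higher ones among members of at least 1 CPM were Mmp8, Mmp27 (1.30 ± 0.17, adjusted p = 1.52e-09) and Adamts19 (0.99 ± 0.24, adjusted p = 0.000331). The strains of this set did not move as 1. Mmp9 was high in WSB and low in PWK and Cast, Mmp13 was high in PWK and low in Cast, and Mmp2 was high in Cast and low in WSB.

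Xist differed between libraries of the same strain, and 29 members followed it within strain (36.6% of all genes did), 11 upwards (17.7%) and 18 downwards (18.9%). With the replicate number as a block the count was 16, with 4 upwards and 12 downwards. The share of all genes was not counted with the block, so the lower count is not a result about members. Libraries numbered 1 to 4 made up 27 of the 30 with at least 100 CPM of Xist, and those numbered 5 to 9 only 3 of 31, so whatever else the numbers mark moves with Xist. Mmp3 rose by 0.28 ± 0.04 on the log2 scale per doubling of Xist (adjusted p = 7.19e-07). In NZO it lay at 44.5 to 72.5 CPM in the 4 libraries above that limit and at 2.69 to 10.1 CPM in the others. The corresponding ranges were 16.9 to 24.8 and 3.14 to 5.55 CPM in AJ, 12.3 to 21.7 and 1.62 to 9.65 in B6, and 8.51 to 17.0 and 1.48 to 1.96 in 129. In NOD they were 3.78 to 4.79 and 0.0524 to 0.619 CPM, and in WSB 1.14 to 3.09 and 0.0213 to 0.110. The ranges did not overlap in these 6 strains, and they did in Cast and PWK. The limit was set after the values were seen, and no test was made of the split.

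Adam8 fell with Xist in the fit over all strains (-0.15 ± 0.03, adjusted p = 5.38e-05), but not in each of them, and NZO ran the other way. In B6 it was at 4.18 to 5.23 CPM in the libraries above the limit and at 24.7 to 86.6 CPM below it, and in AJ at 3.59 to 7.02 and 17.6 to 29.0 CPM. The ranges overlapped in NOD (7.87 to 25.4 and 15.0 to 65.2 CPM) and in Cast (2.24 to 10.1 and 4.88 to 32.7 CPM). In NZO Adam8 was at 163 to 358 CPM above the limit and at 72.4 to 105 CPM below it. This difference between NZO and the other strains was not tested. Timp4 also fell with Xist (-0.11 ± 0.01, adjusted p = 6.88e-08), from 358 to 417 CPM below the limit to 109 to 120.3 CPM above it in AJ, and from 199.9 to 314 to 75.2 to 88.8 CPM in WSB. Ranges of Timp4 above and below the limit overlapped in B6 (88.1 to 128 and 89.9 to 223 CPM). They also did in Cast (65.5 to 163 and 81.1 to 171 CPM) and NOD (165 to 221 and 163 to 467 CPM). Timp1 and Timp3 fell likewise in the fit over all strains (-0.11 ± 0.03, adjusted p = 0.00481, and -0.04 ± 0.01, adjusted p = 0.000698). But the Timp1 median in NZO was 21.2 CPM above the limit and 13.6 CPM below it, and in NOD 4.29 and 4.12 CPM. In the other strains the Timp1 median was lower above the limit. The widest gap was in Cast (1.40 and 28.6 CPM), where replicates 5 and 6 lay below the limit. Among members of at least 1 CPM, Mmp7 (-0.65 ± 0.10, adjusted p = 1.63e-06) and Mmp8 (-0.19 ± 0.05, adjusted p = 0.00526) also had large falls, and Mmp8 came to -0.08 without NZO replicate 8 (adjusted p = 0.119). Adamts19 and Adamts16 rose (0.10 ± 0.02, adjusted p = 0.000747, and 0.09 ± 0.02, adjusted p = 0.00207).

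**Figure D5:**
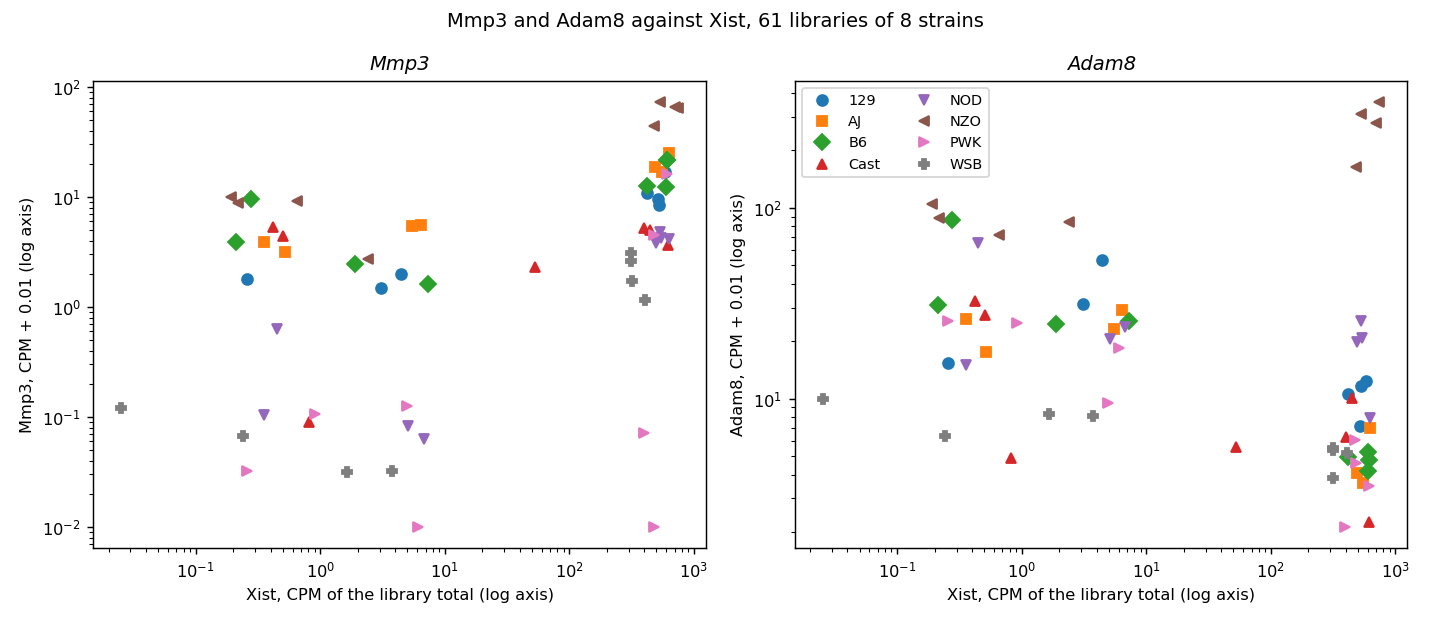
Mmp3 (left) and Adam8 (right) as CPM + 0.01 against Xist in CPM of the library total, both on log axes, for 61 libraries marked by strain. NZO lies on top in both panels at high Xist, with Mmp3 at 44.5 to 72.5 and Adam8 at 163 to 358 CPM.

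Genes around the proteases were counted from lists of regulators, of the plasminogen system and of substrates. Plasmin, made from plasminogen by Plau or Plat, activates several Mmp precursors. Of 8 plasminogen genes, NZO had 5 higher and none lower (27.2% and 26.6% of all genes). Among them were the Plau receptor Plaur (1.02 ± 0.22, adjusted p = 0.000114) and Plau (0.90 ± 0.14, adjusted p = 6.08e-07). The inhibitor Serpine2 was also among them (0.94 ± 0.29, adjusted p = 0.00552). The list joins activators and inhibitors, so its counts give no direction of activity. WSB had 1 higher and 4 lower (25.6% and 23.7% of all genes), with Plat at -0.70 ± 0.15 (adjusted p = 9.39e-05). The plasminogen genes in Cast were 2 higher and 1 lower (29.6% and 26.6% of all genes). Of 22 matrix substrates, 12 were higher and 2 lower in NZO (27.2% and 26.6% of all genes). In WSB none were higher and 15 lower (25.6% and 23.7%), and in Cast 3 were higher and 13 lower (29.6% and 26.6%). Spp1, the matrix and macrophage protein osteopontin, was the largest of them in NZO (4.20 ± 0.47, adjusted p = 5.44e-11) and WSB (-4.79 ± 0.94, adjusted p = 2.86e-05). The collagen gene Col1a1 rose by 1.05 ± 0.20 in NZO (adjusted p = 1.22e-05), and Tnc, tenascin C, fell by 2.01 ± 0.18 in Cast (adjusted p = 5.7e-14).

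Of 28 substrates of the Adams, 12 were higher and 6 lower in NZO (27.2% and 26.6% of all genes). The higher ones included the hyaluronan receptor Cd44 (1.65 ± 0.21, adjusted p = 2.34e-09), the tumour necrosis factor receptor Tnfrsf1b (1.30 ± 0.14, adjusted p = 1.87e-11) and the chemokine Cxcl16 (1.11 ± 0.14, adjusted p = 7.77e-10). In WSB 2 were higher and 6 lower (25.6% and 23.7% of all genes), with Cd44 at -0.91 ± 0.26 (adjusted p = 0.00331). Of 23 regulators and activators, 7 were higher and 12 lower in NZO (27.2% and 26.6% of all genes). Pcsk5 and Pcsk6, convertases that activate protease precursors, fell in NZO (-1.21 ± 0.18, adjusted p = 1.56e-07, and -1.06 ± 0.21, adjusted p = 1.94e-05). Pcsk5 rose in Cast (1.28 ± 0.16, adjusted p = 5.76e-10), and Pcsk6 was lower in 129 (-1.79 ± 0.23, adjusted p = 2.29e-08) and higher in AJ (1.31 ± 0.18, adjusted p = 5.15e-08). Tspan15, a tetraspanin that guides Adam10 to its substrates, fell in WSB (-1.79 ± 0.15, adjusted p = 1.24e-14) and PWK (-0.89 ± 0.14, adjusted p = 5.68e-07) and was higher in AJ (0.70 ± 0.13, adjusted p = 3.14e-05).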

How the data were processed

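The authors deposited expected counts (an estimated count of reads per gene) for 61 poly(A)-selected RNA libraries, and a log2-scale table from a variance-stabilising transformation. Per the submitters' processing notes the build was GRCm38 and DESeq2 was used, while the aligner, the counting tool and its use of strand are not given in the sources used here. Gene positions come from the deposited annotation. Of the deposited counts, 21.1% were not whole (tolerance 0.000001) and all were rounded. Where more than 50 percent of libraries had such estimates, a gene was taken to share reads (8 members). An exon of 14 members overlaps an exon of another gene.

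Counts were scaled by TMM and tested with edgeR 4.0.16 (quasi-likelihood, robust, 1 mean per strain) in R 4.3.3, over the 18603 genes that passed filterByExpr, with Benjamini-Hochberg adjustment. Each strain was set against the unweighted mean of the other 7, and wild-derived against classical strains. The Xist slope was fitted with strain as a term. Log2 CPM values used a prior count of 2. CPM of marker lists and Xist are per library total. CPM intervals cover counting error only. Alternatives used DESeq2 1.42.0 and limma 3.58.1 (on the log2 table), other scalings and filters, and left-out libraries. Gene lengths are unions of exons.

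The procedure was tested on simulated data for NZO against the other strains (18365 genes), where it recovered 47.7% of changes of 0.5, 79.1% of changes of 1 and 92.2% of changes of 2 on the log2 scale, and 5.92% of its calls were on unchanged genes. Values were given for the Timps, for the most abundant member per length of each role, and for up to 3 called members of at least 1 CPM with the largest change in each direction per comparison. Other names were chosen after their values were seen. Members, lists and tests were chosen with earlier results of these data known. Mmp12 is not among the members. A gene of the pathway lists is not reported here. No 2 libraries of the same strain agreed within sampling noise. Promoter sequences are from RefSeq. Figures were drawn with matplotlib 3.10.9.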

Additional observations from a re-analysis of the deposited data

Results flagged for a closer look

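In 7 of 76 groups of a named member and a strain (9.21%), 1 library lay far from the others by Dixon's ratio. Chance alone gives about 1 in 20 for groups not picked by their values. Many of these groups were named for large changes, so the shares cannot be compared. Mmp13 was at 0.289 CPM in Cast replicate 8 and at 0 to 0.0399 CPM in the other Cast libraries. Mmp8 was at 67.8 CPM in NZO replicate 8 and at 0.0588 to 1.15 CPM in the others of that strain. Mmp7 was at 0.970 CPM in NZO replicate 6 and at 0 to 0.0277 CPM in the other NZO libraries. Adam3 and Adam5 were at 21.8 and 21.0 CPM in PWK replicate 5, and at most at 0.390 and 0.554 CPM in the rest of PWK. Timp3 was at 697 CPM in B6 replicate 7, above 352 to 482 CPM in the other B6 libraries. Timp1 was at 12.6 CPM in NOD replicate 6, one of the libraries rich in male duct markers, and at 3.55 to 6.20 CPM in the other NOD libraries. The causes were not tested.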

How the results depend on the processing

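With only genes of at least 5 CPM (34 members tested), 34 members differed among strains, and the counts were 5 in 129, 22 in Cast, 7 in NOD, 23 in NZO, 14 in PWK, 24 for wild-derived strains, 17 for Xist and 384 over the pairs; fewer members were tested there. Without the duct-rich libraries 129 had 0 called members (2036 of 19129 genes were called), and only libraries with high Xist were left in that strain. Leaving out 1 library gave 4 to 10 called members in 129, 9 to 18 in B6, 11 to 16 in AJ, 31 to 35 in Cast, 30 to 39 in NZO, 22 to 27 in PWK and 25 to 32 in WSB. Directions turned for Adamts8 in 129 without the duct-rich libraries (-0.0641), for Timp1 in Cast without replicates 5 and 6 (-1.44), and for Adam3 and Adam5 in PWK by DESeq2 (-1.76 and -0.85) and without the 4 libraries rich in germ-cell Adams (-1.45 and -0.74). Over single left-out libraries Adam3 in PWK ran from -2.92 to 3.31 and Adam5 from -1.64 to 2.21, the lowest without PWK replicate 5 (2.87 and 2.06 without WSB replicate 7). In WSB Adam3 and Adam5 turned without those 4 libraries (-0.89 and -0.78). Leaving out the 4 libraries, or each library in turn, was chosen after seeing the data. Same-numbered libraries of different strains had a median correlation of 0.11 (186 pairs, lowest -0.44), against -0.02 for pairs of other numbers. Of the 61 libraries, 21 correlated best with their own number. The labels do not say what the number marks, so it was left out of the main fits and used as a block in an alternative. With the replicate block, 16 members followed Xist (4 upwards), against 29 (11 upwards) without it. No share of all genes was counted with the block. The block moved no other count of called members by over 1.5 times (NZO 34).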
